A study of Homo sapiens with 48 samples.

Results

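Long non-coding RNA (lncRNA) genes were examined as a group in BEAS-2B, an immortalised line of human bronchial epithelial cells. They were recognised by name: symbols that start with LINC or SNHG, end in -AS1, -AS2 or -DT, or start with MIR and end in HG, with LINC00473 left out. Of 19775 genes that had a probe set with exactly 1 symbol on the Affymetrix U133 Plus 2.0 array, 1844 carried such a name, and 798 of these had a mean log2(signal + 16) above 6.514 over the 48 arrays (a signal of about 75.42) and were kept, among 14409 genes tested. The 798 comprised 313 of 840 LINC genes, 355 of 760 antisense genes, 99 of 197 divergent transcripts, 23 of 36 microRNA host genes and 8 of 11 SNHG genes. Just inside the limit lay LINC00348 (6.51461), LINC00639 (6.51553) and LINC00567 (6.51568), and just outside it PYCARD-AS1 (6.50924), ERICH2-DT (6.51304) and CD81-AS1 (6.51435, under the unrounded limit of 6.51438). Beside their names, members were thus chosen by their mean signal over all arrays, which is given here as a description only.

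The cells had been grown to confluence in keratinocyte serum-free medium and kept without growth supplements for the last 24 h. They then received vehicle, indacaterol and GSK 256066 together at 10 nM each (Ind/GSK), or GS-5759 at 10 nM. Indacaterol is a long-acting agonist of the β2-adrenoceptor, GSK 256066 an inhibitor of phosphodiesterase 4, which breaks down cAMP, and GS-5759 a single molecule with both activities. RNA was taken after 1, 2, 6 or 18 h, with 4 replicates of each treatment at each time, so that 12 groups were compared. Each group is a treatment of 1 cell line, and the labels do not say whether the replicates were separate cultures, so each p-value speaks only of the spread among these 48 arrays, which may be technical.

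LncRNAs are transcripts that are capped and often polyadenylated like messenger RNAs but have no long open reading frame. LINC genes lie between protein-coding genes, antisense genes (-AS1, -AS2) lie on the opposite strand of the gene they are named after, and divergent transcripts (-DT) start close to the start of a neighbouring gene and run away from it. Some are precursors: SNHG genes carry small nucleolar RNAs in their introns, and MIR...HG genes carry microRNAs. In most tissues they are less abundant than messenger RNAs. In airway epithelium cAMP acts on transcription through protein kinase A and the factor CREB, which binds the cAMP response element.

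The arrays of replicate 3 stood apart from the others. Their summed signal of 9 epithelial markers was 243600 to 497900, and 9747 to 20900 on the arrays of replicates 1, 2 and 4. Over all arrays KRT14 was the largest part of the sum, with a mean signal of 77430 but a mean log2 signal of 8.52. KRT5 had 8326 and 9.35, KRT8 5046 and 12.27, and KRT18 7846 and 12.92. The sum thus does not show that all 9 markers, CDH1 among them, were higher in replicate 3. The first principal component of the residuals, 68.7% of their variance, separated the replicate numbers. Of 10 epithelial markers with a probe set of 1 symbol, 9 passed the filter on the mean log2 signal and KRT19 (mean signal 850.1) did not. Of 8 fibroblast markers 7 passed. COL1A1 (9035), PDGFRB (1811) and THY1 (1395) were bright. COL1A2 (135.4), DCN (140.5), COL3A1 (90.6) and LUM (80.2) lay nearer the filter signal of 75.42, and FAP (24.2) did not pass. The leukocyte markers CD3E, CD14 and ITGAM passed at mean signals of 85.3, 119 and 95.01, whereas PTPRC, which marks leukocytes as a whole, had 28.4 and did not. Of 5 endothelial markers PECAM1 (520.4) and VWF (76.8) passed, CDH5 (12.5), KDR and TEK did not, and none of the markers was at 0. Of cAMP-CREB target genes, 11 of 11 tested rose at 2 h with each treatment, where 1.34% (Ind/GSK) and 1.6% (GS-5759) of all genes rose. Among the 11 was the excluded lncRNA LINC00473, which rose by 3.36 (Ind/GSK) and 3.47 (GS-5759) on the log2 scale. The list was chosen with earlier results of these data known, so the count is a description and not a check of the treatments. In RNA of whole cultures, fewer cells of a type and less RNA per cell cannot be told apart.

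Sequences are shown for members on which the results below turn, from RefSeq on GRCh38.p14. The microRNAs that MIR181A2HG and MIR210HG are named after are printed with the seed (bases 2 to 8) in capitals, since the seed decides which messages a microRNA pairs with. The first pair lie at chr9:124692480-124692502 and chr9:124693725-124693747 on the plus strand and share 1 seed. The other lies at chr11:568112-568133 on the minus strand and has a seed of its own.
hsa-miR-181a-5p: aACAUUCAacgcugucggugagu
hsa-miR-181b-5p: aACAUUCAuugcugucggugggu
hsa-miR-210-3p: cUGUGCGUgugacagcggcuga
The arrays measured the host transcripts and not these microRNAs.

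Promoter windows, from 250 bases before to 50 bases after the annotated start, are shown for 4 genes that were higher with treatment, with any core of the cAMP response element (TGACG or its complement CGTCA) in capitals. The windows lie at chr18:3593864-3594163 on the plus strand, chr10:96090186-96090485 on the minus strand, chr11:33075900-33076199 on the plus strand and chr7:149468-149767 on the plus strand, and are printed 5′ to 3′ in the direction of transcription.
DLGAP1-AS1: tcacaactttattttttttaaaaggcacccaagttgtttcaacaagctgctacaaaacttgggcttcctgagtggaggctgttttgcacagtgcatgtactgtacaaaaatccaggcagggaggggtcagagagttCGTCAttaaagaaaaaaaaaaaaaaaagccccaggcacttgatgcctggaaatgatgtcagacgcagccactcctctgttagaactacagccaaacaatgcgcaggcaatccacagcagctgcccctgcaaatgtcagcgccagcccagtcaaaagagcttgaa
ENTPD1-AS1: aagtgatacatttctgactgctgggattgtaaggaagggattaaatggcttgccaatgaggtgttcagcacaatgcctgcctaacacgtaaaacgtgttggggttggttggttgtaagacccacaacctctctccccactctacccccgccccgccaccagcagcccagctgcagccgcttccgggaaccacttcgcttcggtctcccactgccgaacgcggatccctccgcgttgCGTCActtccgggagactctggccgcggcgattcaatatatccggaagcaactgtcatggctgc
LINC00294: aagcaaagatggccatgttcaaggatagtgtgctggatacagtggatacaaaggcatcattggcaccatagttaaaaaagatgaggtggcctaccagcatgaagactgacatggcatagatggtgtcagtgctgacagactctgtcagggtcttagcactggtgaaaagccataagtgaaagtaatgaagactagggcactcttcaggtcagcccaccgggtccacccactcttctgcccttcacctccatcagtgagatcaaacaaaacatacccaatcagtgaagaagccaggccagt
LINC03014: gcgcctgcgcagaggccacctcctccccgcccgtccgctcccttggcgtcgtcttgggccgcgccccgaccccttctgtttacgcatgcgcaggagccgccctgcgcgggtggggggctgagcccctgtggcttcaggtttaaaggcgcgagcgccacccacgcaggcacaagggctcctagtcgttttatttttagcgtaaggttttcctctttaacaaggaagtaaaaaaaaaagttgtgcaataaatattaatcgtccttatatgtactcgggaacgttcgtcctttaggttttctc
The core began 114 bases before the start of DLGAP1-AS1 and 14 bases before that of ENTPD1-AS1, and the other windows held none. The table had a window for 591 of the 798 members and for 35 of the 44 members named by rule or result. The core, on either strand, was in 6828 of all 27305 windows (25.0%), in 171 of the 591 members' (28.9%) and in 11 of the 35 (31.4%). The full element TGACGTCA, which contains the core on both strands, was in 1.98% of all windows, in 2.54% of the members' and in 1 of the 35, that of DNAJC27-AS1, which fell with GS-5759 at 6 h. A match of letters is a description and not a binding site.

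When the pairing by replicate number was left out of the fit, few lncRNA genes were called with either treatment. Limma, with a gene called at a Benjamini-Hochberg adjusted p under 0.05, called 39 of the 798 members (4.89%) in at least 1 of the 8 comparisons with vehicle, against 1205 of all 14409 genes (8.36%). With the replicate number as a block, which removes differences shared by same-numbered arrays, these were 207 members (25.9%) and 5720 genes (39.7%). The members were dimmer, with a median signal of 162 against 682 for all genes tested. The part of this in the shares here and below was not tested. By class, without the block, 12 of 313 LINC genes, 18 of 355 antisense genes, 7 of 99 divergent transcripts, 2 of 23 microRNA hosts and none of the 8 SNHG genes were called. Only 6 members were called in more than 1 comparison, and FLVCR1-DT, TMEM161B-DT and ENTPD1-AS1 in 3 each.

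With Ind/GSK, 5 members rose and 6 fell at 1 h, where 0.451% of all genes rose and 1.38% fell. At 2 h, 2 rose and 5 fell (all genes 1.34% and 2.15%), and at 6 h, 2 rose and 9 fell (all genes 1.03% and 2.7%). At 18 h limma called none (0.0208% and 0.0278% of all genes), with 70 members at an unadjusted p under 0.05. As shares of the members these were 0.627% and 0.752% at 1 h, 0.251% and 0.627% at 2 h, and 0.251% and 1.13% at 6 h. The share that rose at 2 h and 6 h was thus below that of all genes, whose median signal was higher (682 against 162). With the replicate block 37 rose and 59 fell at 1 h (all genes 2.28% and 15.8%), 7 and 31 at 2 h (3.76% and 8.09%), 21 and 40 at 6 h (4.68% and 13.1%), and 3 and 5 at 18 h (0.514% and 1.37%). In either direction the block called 18.1%, 11.9%, 17.8% and 1.88% of all genes at these times.

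With GS-5759, limma called no member at 1 h (0.257% of all genes rose and 0.0139% fell) or at 18 h (0% in both directions). At unadjusted p under 0.05 there were 61 and 51 members. At 2 h, 3 members rose and 8 fell (all genes 1.6% and 0.833%), and at 6 h, 2 rose and 6 fell (1.03% and 0.548%). As shares of the members these were 0.376% and 1.0% at 2 h, and 0.251% and 0.752% at 6 h. At both times the rises were a smaller share of the members than of all genes, and the falls a larger one, though with the block the falls were 4.01% against 4.05% at 2 h and 4.89% against 4.58% at 6 h. With the block, 3 rose and 1 fell at 1 h (0.999% and 0.354% of all genes), 9 and 32 at 2 h (5.27% and 4.05%), 19 and 39 at 6 h (6.01% and 4.58%), and none at 18 h (0.0972% and 0.0486%). In either direction the block called 1.35%, 9.33%, 10.6% and 0.146% of all genes.

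**Figure D1:**
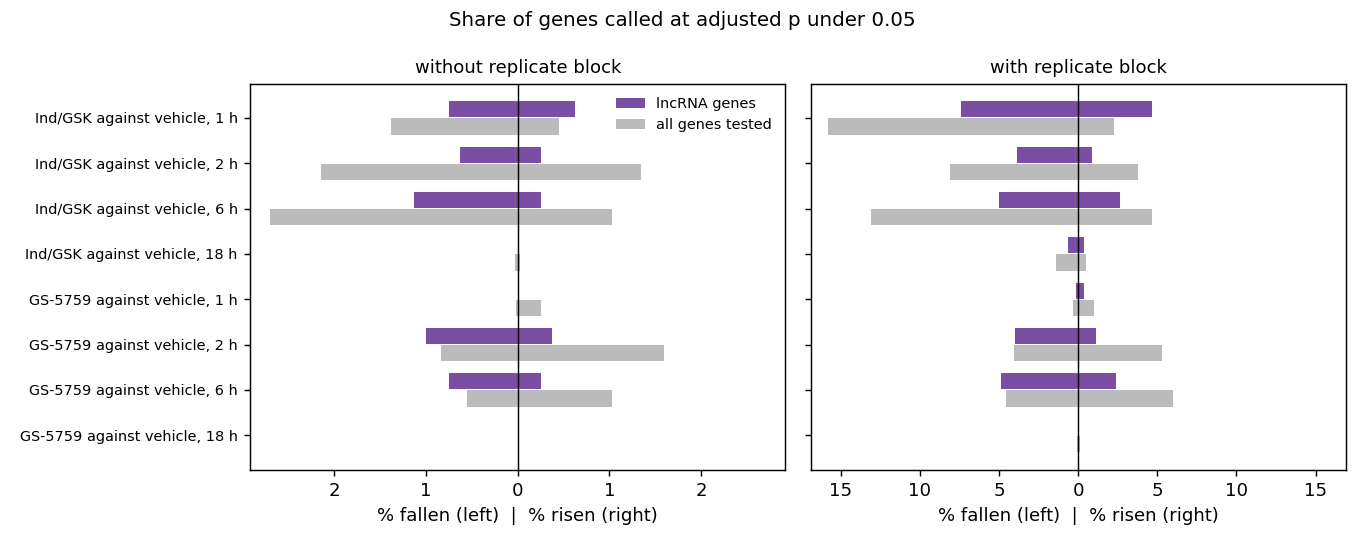
Percentage of lncRNA genes (purple) and of all 14409 genes tested (grey) called at an adjusted p under 0.05 in each comparison with vehicle, falls to the left of 0 and rises to the right, without (left panel) and with (right panel) the replicate number as a block. At 2 h and 6 h the purple bars of risen genes were shorter than the grey ones in both panels, for example 0.376% against 1.6% with GS-5759 at 2 h without the block.

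The split at 1 h depended on how arrays were scaled. The mean 75th-percentile signal was 547 on the Ind/GSK arrays at 1 h, 596 with vehicle and 590 with GS-5759. The median change of all genes with Ind/GSK at 1 h was -0.10 as deposited and 0.02 after centring on the 75th percentile, and that of the members was 0.00 and 0.12. After that centring 29 members rose and 1 fell, and after quantile normalization 5 rose and 2 fell. At 2 h with Ind/GSK the split became 3 risen and 1 fallen by centring, and 5 and 2 by quantile normalization. At 6 h it became 4 and 6, and 5 and 8. With GS-5759 it became 3 and 10, and 3 and 6, at 2 h, and 1 and 7, and 2 and 7, at 6 h. No member named below turned its sign under these scalings.

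Single arrays also carried much of the count without the block. For Ind/GSK at 1 h, the 11 calls (1.83% of all genes were called in either direction) became 1, 0 and 25 when vehicle replicates 1, 2 and 4 were left out in turn, and 1, 4 and 25 when Ind/GSK replicates 1, 2 and 4 were. At 2 h, 7 calls (all genes 3.49%) became 4, 3 and 11 without vehicle replicates 1, 2 and 3, and 4, 1 and 11 without Ind/GSK replicates 1, 3 and 4. At 6 h, 11 (3.73%) became 5 without vehicle replicate 1 and 7 and 4 without Ind/GSK replicates 2 and 3. For GS-5759 at 2 h, 11 (2.43%) became 7 without vehicle replicate 2 or 4, and 3 and 6 without GS-5759 replicates 1 and 3. At 6 h, 8 (1.58%) became 1 and 4 without vehicle replicates 2 and 3, and 3, 2 and 2 without GS-5759 replicates 1, 2 and 3. At 1 h the count of 0 became 1 without vehicle replicate 4 or GS-5759 replicate 2. Without any array of replicate 3 the counts were 12, 5, 11 and 0 with Ind/GSK at 1, 2, 6 and 18 h, and 0, 7, 5 and 0 with GS-5759. Of 56 calls of named members in all comparisons, 10 held in every fit that left out 1 array, 27 held without replicate 3, 40 after quantile normalization, 41 after centring on the 75th percentile, and all 56 with the block.

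Among LINC genes, LINC01128 rose at 2 h with both treatments. Its signal was 955, 1125, 902 and 1155 with vehicle at 2 h, 1980, 1538, 1607 and 1356 with Ind/GSK and 2027, 1471, 1590 and 1362 with GS-5759, in the order of replicates 1 to 4 here and below. Every treated array lay above every vehicle array, and replicate 1 was the highest in both treated groups. The rise was 0.63 ± 0.14 (adjusted p = 0.00614, 2.13e-05 with the block) with Ind/GSK, a fold of 1.55, and 0.62 ± 0.14 (adjusted p = 0.00773, 2.39e-05 with the block) with GS-5759, a fold of 1.54, by limma with Benjamini-Hochberg adjustment over all genes. The former was called in all 8 fits that left out 1 array, and the latter was lost without GS-5759 replicate 1 (adjusted p = 0.0745). At 1 h its differences were -0.06 and 0.03, at 6 h 0.22 (adjusted p = 0.561) and 0.27 (adjusted p = 0.448). Another probe set of this gene, 235497_at, gave 0.82 and 0.84 at 2 h and 0.82 and 0.81 at 6 h, whereas 231942_at gave -0.08 and -0.01 at 2 h. The probe sets of this gene thus disagreed in size and sign.

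LINC00294, whose promoter window is printed above, rose at 6 h with both treatments. Its signal was 921, 994, 876 and 1227 with vehicle at 6 h, 1334, 1350, 1172 and 1648 with Ind/GSK and 1416, 1494, 1131 and 1690 with GS-5759. Vehicle replicate 4 and the lowest treated arrays, those of replicate 3, overlapped, but within each of the 4 replicate numbers the treated array was higher, by 0.41 to 0.53 and 0.36 to 0.61 on the log2 scale. The rise was 0.45 ± 0.11 (adjusted p = 0.00933, 7.64e-06 with the block) and 0.50 ± 0.11 (adjusted p = 0.0058, 1.23e-06 with the block). It held in all 8 fits for GS-5759, and was lost for Ind/GSK without Ind/GSK replicate 4 (adjusted p = 0.0517). At 2 h the groups did not overlap, and the differences of 0.35 and 0.37 had adjusted p of 0.0557 and 0.0527 without the block and 0.000305 and 0.000165 with it. The annotation places TCP11L1 and CSTF3 beside it. TCP11L1 differed by 0.37 and 0.44 at 6 h (adjusted p = 0.163 and 0.124, and 0.00416 and 0.00132 with the block), and CSTF3, a subunit of the machinery that cleaves messages before polyadenylation, by -0.07 and -0.01.

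LINC03014 had the largest rise of a LINC gene called without the block at 6 h. Its signal was 277, 246, 339 and 203 with vehicle, 567, 355, 715 and 381 with Ind/GSK and 527, 315, 580 and 371 with GS-5759. All 4 Ind/GSK arrays lay above the vehicle arrays, the GS-5759 group overlapped with vehicle, and replicates 1 and 3 were the high arrays in all 3 groups. The rise was 0.85 ± 0.20 (adjusted p = 0.00877, 2.18e-07 with the block) with Ind/GSK, a fold of 1.80, and was lost without vehicle replicate 4 or Ind/GSK replicate 3 (highest adjusted p = 0.0857). With GS-5759 the difference was 0.70 (adjusted p = 0.0624, 8.91e-06 with the block). At 1 h and 2 h the differences lay between -0.21 and -0.08.

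LINC01085, chosen after its values were seen, had the largest fall of any member at 6 h with Ind/GSK in size but was called only with the block. Its signal at 6 h was 321, 337, 161 and 321 with vehicle, 131, 158, 72.9 and 173 with Ind/GSK and 152, 168, 71.2 and 165 with GS-5759. Replicate 3 was the lowest array in each group, so that its vehicle array overlapped the treated ones, yet the treated array was lower in all 4 replicate numbers, by -1.20 to -0.83 and -1.02 to -0.90. The difference was -1.01 and -0.96, with adjusted p of 0.15 and 0.248 without the block and 4.06e-09 and 1.34e-08 with it. At 18 h the differences were -0.60 and -0.34. Its neighbour in the annotation, CPEB2, a regulator of message translation, rose at 2 h by 0.42 with Ind/GSK and 0.51 with GS-5759 (adjusted p = 0.0244 and 0.00498). That rise is of another time than the 6 h fall of LINC01085, and a link between these genes was not tested.

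The other LINC genes were called in 1 comparison with vehicle each. At 1 h with Ind/GSK, LINC01312 rose by 0.46 ± 0.12, LINC01512 by 0.46 ± 0.10, LINC00705 by 0.31 ± 0.08 and LINC00671 by 0.30 ± 0.08, and LINC00869 fell by 0.28 ± 0.07. LINC01843 fell by 0.39 ± 0.11 at 2 h with Ind/GSK. With GS-5759, LINC00942 fell by 0.35 ± 0.10 at 2 h, and LINC01366 by 0.48 ± 0.12 and LINC03021 by 0.38 ± 0.10 at 6 h. Adjusted p of these 9 ranged from 0.0156 to 0.0461, and none held in all 8 fits that left out 1 array. LINC01512 held in 5 of 8, LINC00705, LINC00869 and LINC01843 in 4, LINC01312 in 3, LINC00671 in 2, and LINC00942, LINC01366 and LINC03021 in 1. Another probe set turned the sign of LINC00869 (1564204_at, 0.047), LINC00942 (1558308_at, 0.041) and LINC01366 (1559489_a_at, 0.019).

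Antisense genes held the largest rise that was called without the block. DLGAP1-AS1, antisense to a gene for a scaffold protein of synapses, had a signal of 147, 107, 131 and 121 with vehicle at 2 h, 317, 174, 266 and 178 with Ind/GSK and 386, 225, 310 and 191 with GS-5759. All treated arrays lay above all vehicle arrays, replicates 1 and 3 being high in each group, and the groups did not overlap at 6 h either. With GS-5759 at 2 h the rise was 1.01 ± 0.24 (adjusted p = 0.0105, 1.12e-08 with the block), a fold of 2.01. Among changes of members called without the block, it was the only one of at least 2-fold in a comparison with vehicle. That call was lost without GS-5759 replicate 1 or 3 (highest adjusted p = 0.0849) and without all replicate 3 arrays (0.117). The difference was 0.78 at 2 h and 0.79 at 6 h with Ind/GSK (adjusted p = 0.0612 and 0.0529, 2.79e-06 and 2.68e-06 with the block) and 0.82 at 6 h with GS-5759 (adjusted p = 0.0746, 1.61e-06 with the block). Its other probe set, 239421_at, gave 0.08 and 0.06 at 2 h at a level under the filter.

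ENTPD1-AS1 rose less but with little spread. It lies opposite ENTPD1, which encodes CD39, an enzyme that breaks down extracellular ATP. Its signal at 2 h was 248, 279, 261 and 272 with vehicle, 322, 329, 305 and 316 with Ind/GSK and 331, 378, 283 and 371 with GS-5759. At 6 h it was 347, 303, 305 and 372, 385, 376, 413 and 391 and 385, 401, 419 and 397. The groups did not overlap at either time. The rise was 0.25 ± 0.07 (adjusted p = 0.0362, 0.00976 with the block) with Ind/GSK at 2 h, 0.34 ± 0.07 (adjusted p = 0.00289, 0.000548 with the block) with GS-5759 at 2 h and 0.27 ± 0.07 (adjusted p = 0.0405, 0.00717 with the block) with GS-5759 at 6 h. The second held in all 8 fits that left out 1 array and the others in 1 of 8 each, with adjusted p of up to 0.118 and 0.191. The 6 h call was also lost after quantile normalization (adjusted p = 0.0722), after centring on the 75th percentile (0.0625) and without replicate 3 (0.132). Another probe set, 1560352_at, gave -0.14, -0.08 and -0.05 in the same order.

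**Figure D2:**
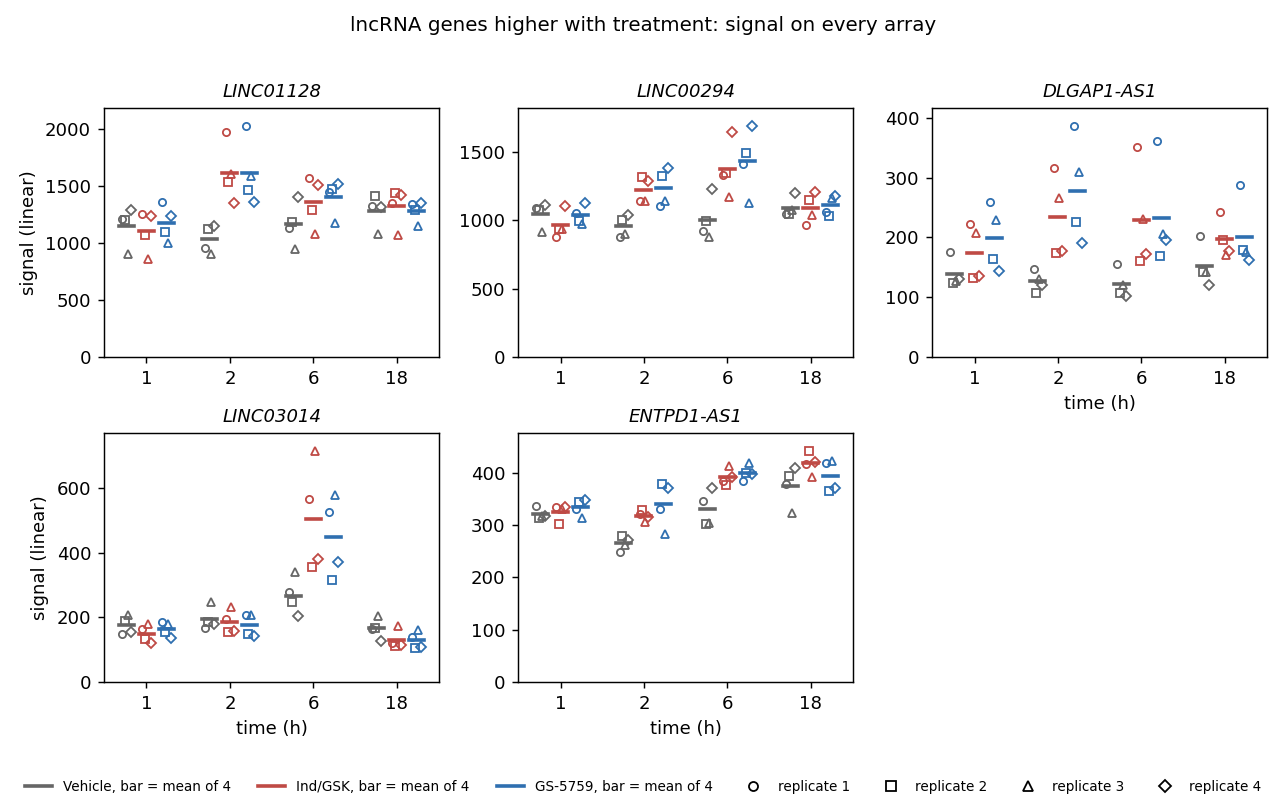
Signal (linear scale) of 5 lncRNA genes on every array against time in hours, with vehicle in grey, Ind/GSK in red and GS-5759 in blue; marker shapes show the replicate number and bars the mean of 4. At 2 h the treated arrays of LINC01128, DLGAP1-AS1 and ENTPD1-AS1 lay above all vehicle arrays, and LINC03014 was higher at 6 h (567, 355, 715 and 381 with Ind/GSK) but not at 2 h.

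Most other antisense genes that were called fell. In all, 18 of 355 antisense genes (5.07%) were called, against 8.36% of all genes. MACROD2-AS1 rose by 0.47 ± 0.12 with Ind/GSK at 1 h (adjusted p = 0.0373), while TAPT1-AS1 fell by 0.46 ± 0.11 and EXOC3-AS1 by 0.42 ± 0.11. At 2 h with Ind/GSK, SORCS3-AS1 fell by 0.44 ± 0.13 and ZNF407-AS1 by 0.28 ± 0.08. At 6 h, PXN-AS1, opposite the gene of the focal adhesion protein paxillin, fell by 0.42 ± 0.10, RASSF8-AS1 by 0.42 ± 0.11 and ZBED5-AS1 by 0.25 ± 0.06. With GS-5759 at 2 h, LOXL2-AS1, opposite the gene of a collagen cross-linking enzyme, fell by 0.49 ± 0.11, NFIA-AS2 by 0.41 ± 0.10, FOSL2-AS1 by 0.41 ± 0.11, SLCO4A1-AS1 by 0.35 ± 0.09, MYRF-AS1 by 0.32 ± 0.09 and ADARB2-AS1 by 0.29 ± 0.08. CYMP-AS1 fell by 0.30 ± 0.08 at 2 h and 0.32 ± 0.08 at 6 h, and DNAJC27-AS1 by 0.39 ± 0.09 at 6 h. Adjusted p of these falls ranged from 0.00413 to 0.0488. None of these rises and falls held in all 8 fits that left out 1 array: LOXL2-AS1 was lost only without GS-5759 replicate 3 (adjusted p = 0.0505), and PXN-AS1 only without vehicle replicate 2 or Ind/GSK replicate 3 (at most 0.0933). FOSL2-AS1 was 213, 241, 255 and 221 with vehicle at 2 h and 175, 203, 114 and 206 with GS-5759, without overlap, and GS-5759 replicate 3 was far the lowest, so that without replicate 3 the adjusted p was 0.441.

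Of the 99 divergent transcripts 7 (7.07%) were called, where 8.36% of all genes were, and all 7 fell. Among all genes falls also outnumbered rises with Ind/GSK, by 199 to 65 at 1 h, 310 to 193 at 2 h and 389 to 148 at 6 h. With GS-5759 at 6 h 79 genes fell and 149 rose. FLVCR1-DT starts 137 bases from FLVCR1, the gene of a haem and choline transporter, and runs the other way. Its signal at 6 h was 136, 131, 126 and 113 with vehicle, 103, 79.8, 96.2 and 89.8 with Ind/GSK and 103, 95.7, 102 and 92.8 with GS-5759, with no overlap between vehicle and treated arrays. At 1 h it was 195, 186, 156 and 158 with vehicle and 138, 138, 120 and 139 with Ind/GSK, again without overlap. The fall was 0.34 ± 0.08 (adjusted p = 0.015, 0.00201 with the block) with Ind/GSK at 1 h, 0.40 ± 0.08 (adjusted p = 0.00121, 9.02e-05 with the block) at 6 h and 0.32 ± 0.08 (adjusted p = 0.0236, 0.00254 with the block) with GS-5759 at 6 h. The fall with Ind/GSK at 6 h held in all 8 fits that left out 1 array, the 1 h fall in 5 and the GS-5759 fall in 3, with adjusted p of up to 0.0945 and 0.0846. The 1 h call was also lost after centring on the 75th percentile (adjusted p = 0.159) and without replicate 3 (0.0556), and the GS-5759 call without replicate 3 (0.0808). At 2 h the differences were -0.03 and 0.01. FLVCR1 itself differed by -0.19 and -0.04 with Ind/GSK at 1 h and 6 h (adjusted p = 0.383 and 0.969).

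TMEM161B-DT fell with Ind/GSK at 3 times. Its signal at 1 h was 339, 335, 359 and 355 with vehicle and 277, 264, 275 and 279 with Ind/GSK. At 2 h it was 279, 289, 344 and 349 and 262, 259, 231 and 264, and at 6 h 283, 286, 346 and 259 and 251, 229, 255 and 213. The groups did not overlap at any of the 3 times. The falls were 0.32 ± 0.08 (adjusted p = 0.0304, 0.00298 with the block), 0.29 ± 0.08 (adjusted p = 0.0333, 0.00449 with the block) and 0.29 ± 0.08 (adjusted p = 0.0365, 0.004 with the block). They held in 2, 3 and 3 of 8 fits that left out 1 array. The 1 h call was lost after quantile normalization (adjusted p = 0.164) and after centring on the 75th percentile (0.23), the 6 h call after centring (0.0646), and the 2 h and 6 h calls without replicate 3 (0.219 and 0.0973). With GS-5759 the differences were -0.15, -0.20 and -0.19 at these times, none of them called. Its other probe sets disagreed: 239840_at gave 0.20, 0.15 and 0.20 with Ind/GSK, and 229815_at -0.15, -0.20 and -0.03.

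BAIAP2-DT, divergent from the gene of an actin-organising scaffold, had the largest fall against vehicle of a divergent transcript called without the block. Its signal at 6 h was 333, 412, 455 and 416 with vehicle, 234, 286, 228 and 318 with Ind/GSK and 276, 330, 269 and 352 with GS-5759. All Ind/GSK arrays lay below the vehicle arrays, and vehicle replicate 1 overlapped with GS-5759. The fall with Ind/GSK was 0.57 ± 0.11 (adjusted p = 0.0016, 2.78e-05 with the block), to a fold of 0.671, and held in all 8 fits that left out 1 array. Its other 4 probe sets gave -0.002 to -0.41. RAB30-DT (-0.42) and ANKRD13C-DT (-0.26) also fell at 6 h with Ind/GSK, C2orf74-DT (-0.28) at 2 h with Ind/GSK, and GALNT7-DT (-0.44) at 6 h with GS-5759, with adjusted p from 0.0235 to 0.0394. Each of these held in 2 or 3 of 8 fits that left out 1 array. After quantile normalization or centring on the 75th percentile, both without the block, the calls of RAB30-DT (adjusted p = 0.0712 and 0.0683), ANKRD13C-DT (0.0867 and 0.0711) and C2orf74-DT (0.0529 and 0.0566) were lost, and without replicate 3 those of RAB30-DT (0.0726) and GALNT7-DT (0.34). With the block the adjusted p was 0.000121 for RAB30-DT, 0.000198 for ANKRD13C-DT, 1.7e-05 for C2orf74-DT and 0.00661 for GALNT7-DT. Another probe set turned the sign of ANKRD13C-DT (234703_at, 0.014), and both others that of GALNT7-DT (1562053_at, 0.092, and 240212_at, 0.032). The starts of the 7 divergent transcripts lie 89 to 841 bases from those of their partners, on the opposite strand.

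Partner genes of these antisense and divergent transcripts were looked at in the same comparisons. Of the calls against vehicle, 26 (of 20 members) had a partner that was tested, and the partner lay on the same side of 0 in 10. Limma called 1 partner in the same direction, EXOC3, a subunit of the vesicle-tethering exocyst, which fell by 0.23 ± 0.06 (adjusted p = 0.0322) beside EXOC3-AS1 with Ind/GSK at 1 h. That call of EXOC3-AS1 (adjusted p = 0.00797 with the block) was lost after quantile normalization (0.18) and after centring on the 75th percentile (0.121). Without replicate 3 it was lost too (0.0615). Limma called 1 partner in the opposite direction, FOSL2, a subunit of the AP-1 transcription factor, which rose by 1.13 ± 0.12 (adjusted p = 2.12e-08) with GS-5759 at 2 h while FOSL2-AS1 fell. With the block 2 partners were called in each direction. Where members were called, limma called 1.58% to 3.73% of all genes in either direction, and 9.33% to 18.1% with the block. The counts of partners are too small to set against these shares. SLCO4A1, an organic anion transporter, was 1.85 ± 0.69 higher (adjusted p = 0.188, 5.9e-07 with the block) while SLCO4A1-AS1 fell, and PXN was 0.25 lower with PXN-AS1 (adjusted p = 0.157, 0.0106 with the block). Which strand each probe set is directed at was not checked here.

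**Figure D3:**
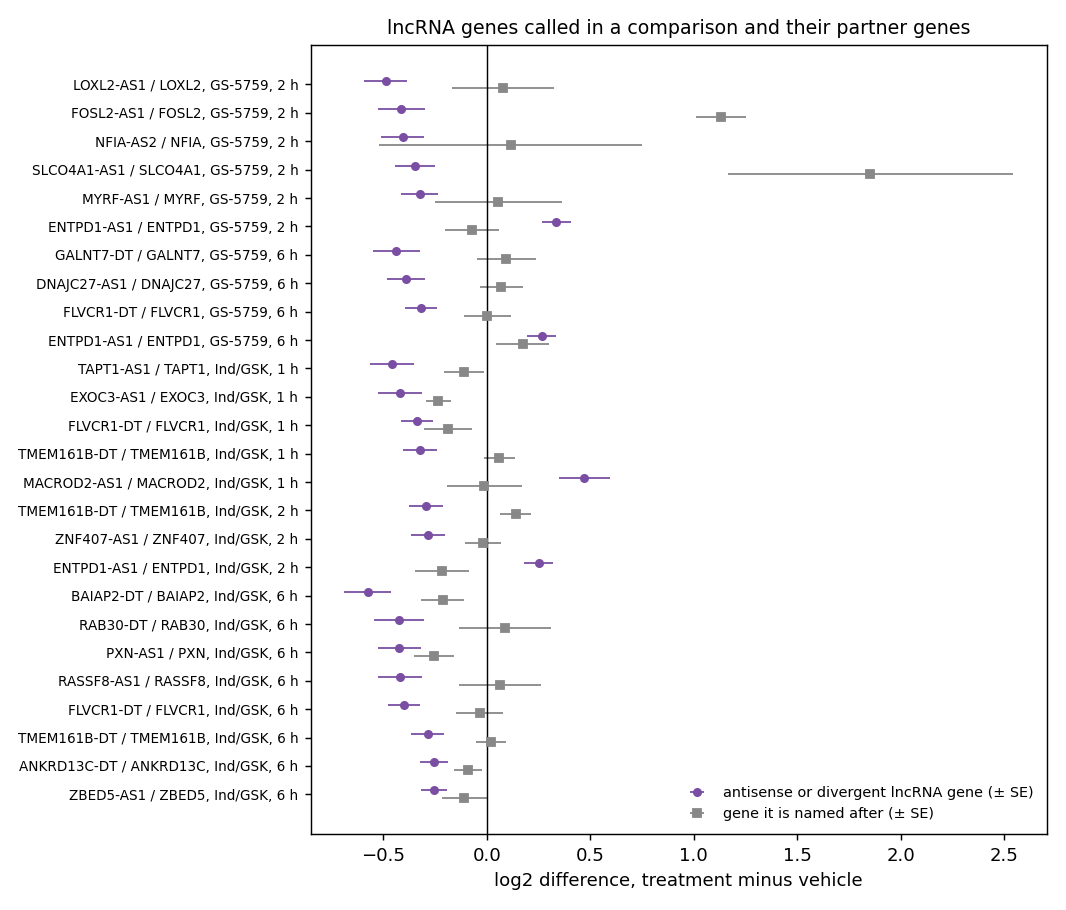
Log2 difference from vehicle, with its SE, of each called antisense or divergent lncRNA gene (purple circles) and of the gene it is named after (grey squares), 1 line per call, 26 in all. Most grey squares lay near 0; FOSL2 (1.13) and SLCO4A1 (1.85) lay far to the right of FOSL2-AS1 (-0.41) and SLCO4A1-AS1 (-0.35).

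Of the 23 microRNA hosts, 2 (8.7%) were called, where 8.36% of all genes were, and both fell. MIR181A2HG, the host of miR-181a-2 and miR-181b-2, had a signal at 1 h of 113, 121, 145 and 102 with vehicle, 54.2, 82.8, 63.4 and 56.7 with Ind/GSK and 55.2, 69.1, 75.6 and 69.1 with GS-5759. Both treated groups lay wholly below vehicle, at levels around or under the filter signal of 75.42. The fall with Ind/GSK was 0.77 ± 0.17 (adjusted p = 0.015, 0.000176 with the block), to a fold of 0.588. Among falls of members called without the block, it was the largest in a comparison with vehicle. It was lost without vehicle replicate 2 or Ind/GSK replicate 1 (highest adjusted p = 0.0689). Without replicate 3 its adjusted p was 0.0631. With GS-5759 the difference was -0.71 (adjusted p = 0.0718, 0.000896 with the block). At 2 h the differences were -0.10 and -0.23.

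MIR210HG, the host of miR-210, a microRNA known to be induced by hypoxia, fell at 6 h. Its signal was 715, 548, 597 and 655 with vehicle, 460, 390, 389 and 487 with Ind/GSK and 497, 435, 592 and 504 with GS-5759. The Ind/GSK arrays all lay below vehicle, and the GS-5759 group overlapped with it. The fall with Ind/GSK was 0.53 ± 0.14 (adjusted p = 0.0205, 0.00143 with the block), held in 4 of 8 fits that left out 1 array, and was -0.26 in its other probe set. Without replicate 3 its adjusted p was 0.0586. With GS-5759 the difference was -0.30 (adjusted p = 0.344, 0.0936 with the block). Among all 23 hosts the differences with Ind/GSK at 1 h ran from -0.77 to 0.21.

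**Figure D4:**
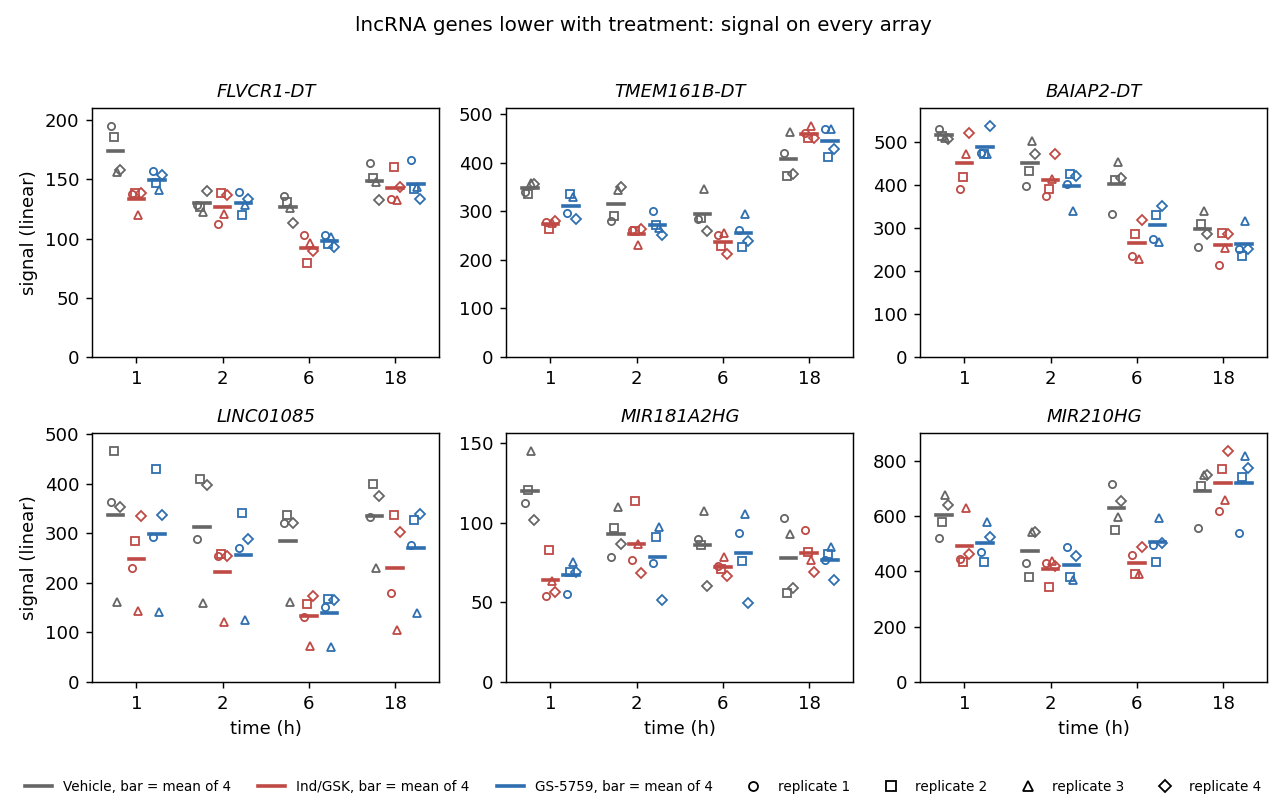
Signal (linear scale) of 6 lncRNA genes on every array against time in hours, with vehicle in grey, Ind/GSK in red and GS-5759 in blue; marker shapes show the replicate number and bars the mean of 4. LINC01085 was low on every array of replicate 3 (triangles) and fell within each replicate number at 6 h, and MIR181A2HG was lower with both treatments at 1 h (54.2, 82.8, 63.4 and 56.7 with Ind/GSK) and overlapped with vehicle at 2 h.

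More lncRNA genes were called over time in vehicle cells than in any comparison of a treatment with vehicle. Between 1 h and 18 h 28 members fell and none rose, where 2.6% of all genes fell and 1.9% rose, so that 3.51% of the members fell. With the block 84 fell and 18 rose (all genes 10.2% and 9%). Without vehicle 18 h replicate 4 the count was 18, without all replicate 3 arrays 38. The split was 30 fallen and 4 risen after centring on the 75th percentile, and 29 and 2 after quantile normalization. Of the 28, 18 were antisense genes, 5 divergent transcripts, 3 LINC genes and 2 SNHG genes. Their differences ran from -0.91 (SNHG4) to -0.28 (LINC00667), with a median of -0.47. One epithelial marker of 9, KRT18, also fell (by 0.49), and with the block 4 did (KRT7, KRT8, KRT18 and EPCAM, by 0.46 to 0.69), while 1 of 7 fibroblast markers, COL1A1, rose by 0.20 with the block (adjusted p = 0.0339) and no leukocyte or endothelial marker was called. The summed epithelial signal was 15020 to 243600 at 1 h and 9747 to 328000 at 18 h. The part of these markers in the result was not tested.

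SNHG4 had a signal of 246, 173, 191 and 182 with vehicle at 1 h and 117, 116, 93.3 and 69.0 at 18 h. EXOC3-AS1 had 493, 436, 456 and 452 and 259, 222, 249 and 249. In both genes every 18 h array lay below every 1 h array. SNHG4 fell by 0.91 ± 0.19 (adjusted p = 0.00226, 1.31e-06 with the block) and EXOC3-AS1 by 0.87 ± 0.11 (adjusted p = 1.28e-06, 2.66e-07 with the block), while EXOC3 differed by 0.00. BAIAP2-DT had 531, 516, 510 and 507 at 1 h and 256, 310, 341 and 287 at 18 h, and LINC00205 988, 786, 657 and 736 and 501, 467, 453 and 544. Neither pair of groups overlapped, and the falls were 0.77 ± 0.11 and 0.66 ± 0.11 (adjusted p = 2.74e-05 and 0.000276). These 4 held in all 8 fits that left out 1 array. In the other 6 probe sets of LINC00205 the differences ran from -0.61 to 0.077, the last in 1552819_at, and in the other 4 of BAIAP2-DT from -0.74 to 0.12, the last in 1566555_at, so that 1 probe set of each gene turned the sign. ST7-AS1 fell by 0.88 ± 0.21 (adjusted p = 0.0106, 3.29e-06 with the block), lost without vehicle 1 h replicate 4 (adjusted p = 0.0612). SNHG19, the other SNHG gene, fell by 0.50 ± 0.12, and the 8 SNHG genes ran from -0.91 to 0.14. Without the block none of the 8 SNHG genes was called with a treatment. With Ind/GSK at 1 h they ran from -0.47 (SNHG4) to 0.03, 7 of 8 below 0 as were 78.1% of all genes. With the block 3 were called with Ind/GSK at 1 h and 1 at 6 h, where 18.1% and 17.8% of all genes were. Probe sets that carry several symbols, such as those of SNHG12 and SNHG15, were outside the 8.

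**Figure D5:**
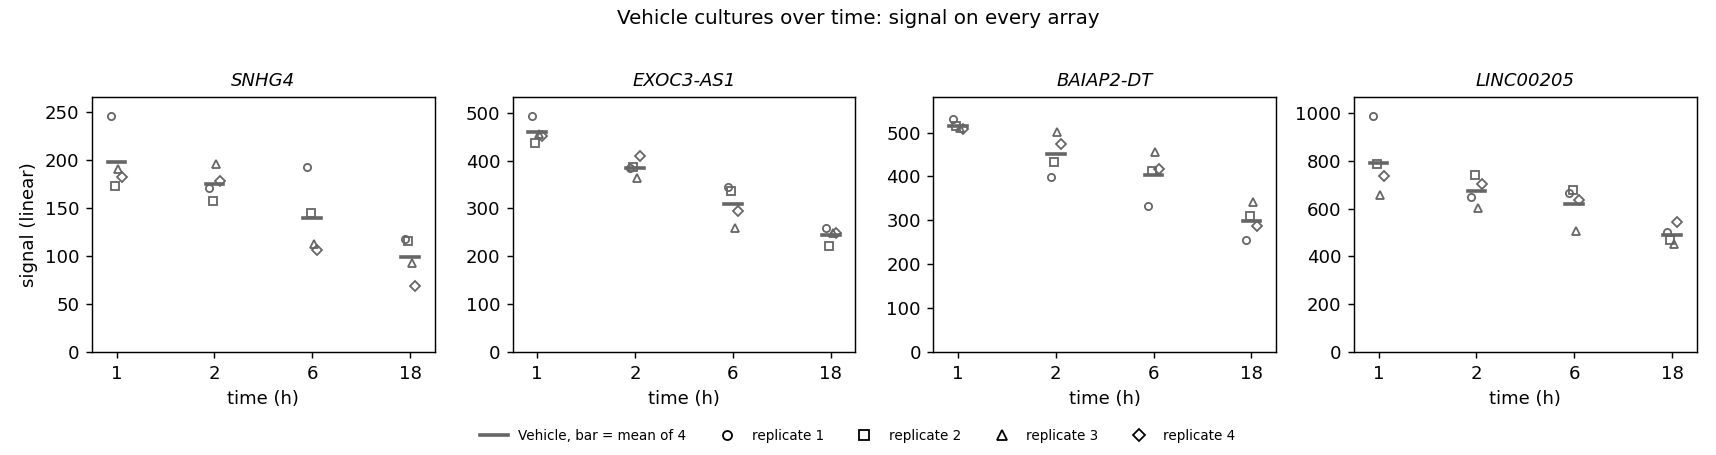
Signal (linear scale) of 4 lncRNA genes on every vehicle array against time in hours; marker shapes show the replicate number and bars the mean of 4. In each panel the 18 h arrays lay below the 1 h arrays, for EXOC3-AS1 at 259, 222, 249 and 249 against 493, 436, 456 and 452.

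The treatments were then compared with each other at the same time and dose. Limma called no member as different between GS-5759 and Ind/GSK at 1, 2, 6 or 18 h (0% of all genes), with or without the block. At unadjusted p under 0.05 there were 57, 24, 27 and 5 members. The 95% interval of the difference lay within 1 log2 unit for 792, 790, 793 and 790 of the 798 members, and its limits lay a median of 0.253 from the difference. For DLGAP1-AS1 at 2 h it was 0.23 (95% interval -0.25 to 0.71), for LINC01128 at 2 h -0.01 (95% interval -0.30 to 0.28), and for LINC03014 at 6 h -0.15 (95% interval -0.55 to 0.25). These comparisons with vehicle share their vehicle arrays, so the changes are given side by side only.

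Averaged over the 4 times, 2 members were lower with GS-5759, where 0.0486% of all genes were lower and 0.0416% higher. LINC02361 had a signal of 120, 118, 97.8 and 114 with Ind/GSK and 62.5, 82.4, 82.7 and 85.5 with GS-5759 at 1 h, and 105, 88.1, 97.8 and 100 and 76.7, 80.5, 70.5 and 73.5 at 6 h. All GS-5759 arrays lay below all Ind/GSK arrays at these times. At 2 h it had 91.2, 78.1, 81.7 and 116 and 77.8, 87.8, 69.6 and 84.0, and at 18 h 97.8, 85.8, 69.2 and 91.1 and 78.8, 77.3, 77.3 and 76.9, where the groups overlapped. Over all times it was lower by 0.26 ± 0.05 (adjusted p = 0.0185, 0.00457 with the block), and LINC01366 by 0.31 ± 0.06 (adjusted p = 0.0328, 0.00155 with the block). LINC02361 was called in all 32 fits that left out 1 array and LINC01366 in 18, and 787 of the 798 intervals lay within 0.5. With the block 22 members were higher and 32 lower (13.1% and 1.18% of all genes). The split was 0 higher and 16 lower after centring on the 75th percentile, and 0 and 7 after quantile normalization. The count became 1 without any of 13 single arrays and without all replicate 3 arrays, 5 without Ind/GSK 1 h replicate 4 or Ind/GSK 18 h replicate 4, and 4 without GS-5759 2 h replicate 3.

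Over time, the mean response to both treatments changed for 1 member. LINC03014 was lower by 1.09 ± 0.24 (adjusted p = 0.0254, 3.39e-07 with the block) at 18 h than at 6 h, where 0.187% of all genes fell and 0.174% rose. With vehicle at 18 h its signal was 165, 166, 205 and 126, with Ind/GSK 122, 111, 175 and 115 and with GS-5759 139, 106, 160 and 110. The 18 h groups overlapped. The call was lost in 5 of 24 fits that left out 1 array (vehicle 18 h replicates 1, 2 and 3, and vehicle 6 h replicates 2 and 4, adjusted p of up to 0.0931). The count of members was 0 without vehicle 18 h replicate 1 or 2 or vehicle 6 h replicate 2, 2 without vehicle 6 h replicate 4 and 3 without GS-5759 6 h replicate 3. Between 1 h and 2 h (0.132% of all genes rose and 0% fell) and between 2 h and 6 h (0.312% and 0.257%) limma called no member, with 100 and 60 at an unadjusted p under 0.05. Those counts became 3 and 4 without vehicle 2 h replicates 3 and 4, and 1 and 2 without vehicle 2 h replicates 1 and 3. With the block 4 members rose and 6 fell between 1 h and 2 h (all genes 1.94% and 0.444%), 11 and 5 between 2 h and 6 h (2.21% and 2.67%), and 9 and 6 between 6 h and 18 h (2.92% and 2.85%).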

How the data were processed

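The authors deposited 1 linear intensity for each probe set and array. The submitters' processing notes name PLIER and Affymetrix Expression Console as tools; their versions and any normalization between arrays are not given in the sources used here. Array medians of log2(signal + 16) were 7.00 to 7.17, so the arrays were used as deposited, and their number limits the precision.

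Of 54675 probe sets, 41091 had exactly 1 symbol (41037 matched to current symbols). The brightest stood for each gene, and 44 members are named, 25 of them with 1 probe set. Genes above the 40th percentile of all non-control probe sets (log2 6.514) were tested. The plan had described that percentile as taken over genes with 1 symbol, which would be 7.41 with 11865 genes, and this was run as an alternative.

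Group means were fitted to all 48 arrays (R 4.3.3, limma 3.58.1, lmFit then eBayes with no trend; residual degrees of freedom 36, prior 2.371), with Benjamini-Hochberg adjustment over 14409 genes within each of 17 contrasts. The code was tested on simulated data. Replicate numbers come from the sample titles. All 52 same-numbered pairs correlated above 0.1 after group means were removed (0.20 to 0.93; 43 of 52 over members, -0.17 to 0.71), so they were taken to pair the samples, and values with the number as a block are given beside the results. Alternatives were quantile normalization, centring on the 75th percentile, pseudocount 1, other filters, other probe sets and arrays left out. They also took in both normalization and block.

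Named were, per comparison with vehicle, up to 10 called rises and 10 falls, up to 5 in other comparisons, and partner genes by symbol. Values in every sample were planned for members called in 3 or more comparisons; the others shown that way were chosen after their values were seen. Lists held cAMP-CREB targets, lncRNAs with other names, snoRNP, nonsense-mediated decay and microRNA processing genes, and epithelial, fibroblast, leukocyte and endothelial markers. The members and lists were chosen with earlier results of these data known. Promoter and microRNA sequences are RefSeq's on GRCh38.p14. Figures were drawn with matplotlib 3.10.9.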

Additional observations from a re-analysis of the deposited data

Results flagged for a closer look

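Among 16 genes in 12 groups, 192 sets of 4 arrays, 11 had 1 array far from the others (the gap to the nearest array, divided by the group's range, was above Dixon's 95% critical value), and chance gives about 1 in 20. Replicate 3 was the array apart in 7 of them. It was the lowest array for LINC01085 with vehicle at 6 h (ratio 0.932, signal 161.4 with the nearest at 320.6), with Ind/GSK at 2 h (0.971, 120.8 and 253.5) and with GS-5759 at 6 h (0.875, 71.2 and 151.9). It was also the lowest for FLVCR1-DT with Ind/GSK at 1 h (0.964, 120.1 and 137.9), TMEM161B-DT with Ind/GSK at 2 h (0.864, 230.8 and 259) and LINC00294 with vehicle at 1 h (0.834, 917.3 and 1077), and the highest for MIR210HG with Ind/GSK at 1 h (0.832, 630.5 and 463). Replicate 2 was the lowest for ENTPD1-AS1 with Ind/GSK at 1 h (0.865, 301.6 and 330.5). Replicate 1 was the highest for DLGAP1-AS1 with vehicle at 1 h (0.859, 175.3 and 130.8) and the lowest for LINC02361 with GS-5759 at 1 h (0.877, 62.5 and 82.4). Replicate 4 was the highest for BAIAP2-DT with GS-5759 at 1 h (0.972, 537.5 and 474.7).

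The response of LINC03014 differed between times, with a log2 difference of -1.09 between the mean responses at 18 h and 6 h, by a test of that difference in limma.

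Probe sets that carry several symbols, at least 1 of them of the lncRNA kind, were outside the comparisons. Of 142 such probe sets 90 lay above the filter. With Ind/GSK, 1570388_a_at (LOC101929800/LINC01961/LINC03025) rose by 0.44 at 1 h. At 6 h 1568951_at (TCF12-DT/ZNF280D, -0.59), 219563_at (SYNE3/LINC00341, -0.53), 225799_at (MIR4435-2HG/CYTOR, -0.47) and 228158_at (LINC02802/LSP1P4/LSP1P5, -0.51) fell. With GS-5759, 219563_at fell at 6 h (-0.41). These were 1.11% and 4.44% of the 90 with Ind/GSK and 1.11% with GS-5759, where 2.01%, 2.87% and 1.28% of all 32768 probe sets above the filter were called. With the block 26.7%, 13.3% and 13.3% were called, against 19%, 14.6% and 9.11% of all. In vehicle cells 7 (7.78%) were called between 1 h and 18 h, against 4.53% of all, and 27 with the block (30%, against 17.2%).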

How the results depend on the processing

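The replicate block moved the counts of called members to 96, 38, 61 and 8 with Ind/GSK at 1, 2, 6 and 18 h, to 4, 41 and 58 with GS-5759 at 1, 2 and 6 h, to 54 for the mean difference between treatments, to 10, 16 and 15 for the response between neighbouring times, and to 102 in vehicle over time. It kept every call of a named member. Quantile normalization with the block gave 44, 39, 64, 12, 3, 50, 82, 22, 10, 30, 30 and 107 in the same order. Centring on the 75th percentile gave 30 and 4 with Ind/GSK at 1 h and 2 h, 1 between treatments at 1 h, 16 for their mean difference, and 1 and 2 for the response from 1 h to 2 h and from 6 h to 18 h. Quantile normalization alone gave 7 with Ind/GSK at 1 h, 1 with GS-5759 at 1 h, 7 for the mean difference, and 1, 1 and 2 for the response between times. Without a filter on dim genes the counts were 4 with Ind/GSK and 6 with GS-5759 at 2 h. The stricter filter, chosen after seeing the data, gave 1 with GS-5759 at 1 h and 1 for the mean difference. Leaving out all replicate 3 arrays, also chosen after seeing the data, gave 7 and 5 with GS-5759 at 2 h and 6 h, 1 for the mean difference, and 1 and 2 for the response from 1 h to 2 h and from 2 h to 6 h. A pseudocount of 1 moved no count by over 1.5 times. The cause was not tested.

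Leaving out 1 array gave 0 to 25, 1 to 11 and 4 to 13 calls with Ind/GSK at 1, 2 and 6 h, 0 to 1, 3 to 10 and 1 to 7 with GS-5759, 1 to 5 for the mean difference, 0 to 4, 0 to 2 and 0 to 3 for the response between times, 18 to 33 in vehicle over time, and 0 in the other comparisons.

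Signs turned only in other probe sets of a gene: TMEM161B-DT (0.20, 0.15 and 0.20 with Ind/GSK at 1, 2 and 6 h), LINC00869 (0.047), LINC01128 (-0.082 with Ind/GSK, -0.015 and -0.13 with GS-5759 at 2 h), ENTPD1-AS1 (-0.14, -0.083 and -0.054), ANKRD13C-DT (0.014), LINC00942 (0.041), LINC01366 (0.019 and 0.028), GALNT7-DT (0.092 and 0.032), BAIAP2-DT (0.12) and LINC00205 (0.077). With 4 arrays a group and signals near the filter, changes of dim members were measured against background that the files do not give.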

Other observations

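LncRNA genes whose names follow no such pattern were looked at from a list of 44, of which 24 were tested. UCA1, first described in bladder cancer, rose by 0.58 ± 0.15 with Ind/GSK at 1 h (limma, adjusted p = 0.0322, 0.00955 with the block), and no other of the 24 was called with a treatment without the block. With the block 4 fell with Ind/GSK at 1 h (TUG1, JPX, HCG18 and NBR2), 2 at 2 h (NORAD and DLEU1), 4 at 6 h (TUG1, JPX, DLEU1 and DLEU2) and 1 at 18 h (NORAD), where 15.8%, 8.09%, 13.1% and 1.37% of all genes fell. With GS-5759 and the block NORAD fell at 2 h and GABPB1-IT1 rose at 6 h (all genes 4.05% and 6.01%). In vehicle cells, 3 fell between 1 h and 18 h (all genes 2.6%): GABPB1-IT1 (-0.78 ± 0.12), DANCR (-0.35 ± 0.08) and ZFAS1 (-0.25 ± 0.07). DANCR and ZFAS1 both carry small nucleolar RNAs, like the SNHG genes, and had adjusted p of 0.00619 and 0.0284. GABPB1-AS1, a member of the lncRNA set, fell by 0.58 ± 0.14 in the same comparison.

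Among genes that act on such transcripts, 2 nonsense-mediated decay factors of 8 tested fell with Ind/GSK: SMG8 by 0.21 ± 0.05 at 2 h (adjusted p = 0.0219) and RBM8A, a core protein of the exon junction complex, by 0.23 ± 0.07 at 6 h (adjusted p = 0.0355), where 2.15% and 2.7% of all genes fell. With the block 3 fell at 1 h (UPF1, SMG5 and SMG8), 1 at 2 h (SMG8) and 3 at 6 h (UPF2, SMG5 and RBM8A) with Ind/GSK, and SMG8 at 2 h and RBM8A at 6 h with GS-5759. Of all genes, 15.8%, 8.09% and 13.1% fell with the block with Ind/GSK at these times. With GS-5759 these shares were 4.05% at 2 h and 4.58% at 6 h. Limma called none of 8 snoRNP core proteins and none of 14 microRNA processing genes in a comparison with vehicle. With the block, 2 of the former (NOP10 and GAR1) fell with Ind/GSK at 6 h, where 13.1% of all genes fell, and 5 of the latter (DROSHA, TARBP2, AGO2, TNRC6A and TUT7) fell with Ind/GSK at 1 h, where 15.8% did. AGO2 rose with the block at 2 h with both treatments, by 0.21 (adjusted p = 0.0403) and 0.24 (0.0247), while TNRC6C fell at 2 h with GS-5759 and PRKRA and AGO1 fell at 6 h with Ind/GSK. Of all genes, 3.76% and 5.27% rose with the block at 2 h with Ind/GSK and GS-5759. The shares that fell were 4.05% at 2 h with GS-5759 and 13.1% at 6 h with Ind/GSK.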
